A study of Mus musculus with 36 samples.

Results

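The Notch ligand genes Jag1, Jag2 and Dll1, the receptor genes Notch1, Notch2, Notch3 and Notch4 and the target genes Hes1, Hey1 and Heyl were followed through the reprogramming of mouse fibroblasts. These 10 genes, out of 20325 in the deposited tables, were matched by gene symbol in all 36 libraries. They were chosen in part by a measured value, the rise of Jag2 with the inhibitor at day 2 of the timecourse, so values of that comparison are given as a description without a test. All 10 passed the filter on low counts in each experiment.

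Notch signalling passes between touching cells. A ligand on one cell pulls on a receptor on its neighbour, ADAM proteases and gamma-secretase then cut the receptor, and the freed intracellular domain joins the DNA-binding protein RBPJ to switch on target genes. Hes1, Hey1 and Heyl are such targets and encode transcriptional repressors. In embryonic tissues the pathway is best known for choices of fate between neighbouring cells.

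The cells were embryonic fibroblasts (MEFs) from E13.5 embryos. All MEF-derived groups, controls included, carried both copies of a doxycycline-driven cassette at Col1a1 that encodes c-Myc, Sox2, Klf4 and Oct4 (gene symbol Pou5f1) and 1 copy of the reverse tetracycline transactivator at Rosa26. The inhibitor was SGC0946, which blocks DOT1L, the enzyme that methylates lysine 79 of histone H3, and its controls received DMSO. The timecourse compared uninduced MEFs, cells after 2 days of doxycycline with DMSO or inhibitor, and cells after 4 days of doxycycline. The latter had DMSO throughout, inhibitor on days 0 to 2 (early window), on days 2 to 4 (mid window), or on days 0 to 4 (full window). In the sort experiment, cells were separated at day 3.5 by surface CDH1 (E-cadherin) and kept to day 5.5 on doxycycline with DMSO or inhibitor. In the lentivirus experiment, MEFs carried an empty or a Cdh1 lentivirus and were left uninduced or given 2 days of doxycycline with DMSO or inhibitor. V6.5 mouse embryonic stem cells (ESCs), whose genotype the labels do not give, were freed of feeder cells 24 h before harvest; their deposited tables carry the word DMSO in their names, a treatment that the labels do not list. Each of the 18 groups had 2 libraries.

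A library held 32.9 M to 50.9 M expected counts in the timecourse, 34.9 M to 43.1 M in the sort and 18.5 M to 35.9 M in the lentivirus experiment, and the ESC libraries held 30.7 M and 35.2 M. Reprogramming cells and ESCs lay on irradiated feeder MEFs, whose RNA the counts cannot separate. One label conflicted: the source field of replicate 2 of the uninduced MEFs with Cdh1 virus named day 2 cells, while its title and treatment named MEFs. Pou5f1 stood at 0.774 and 1.22 CPM in the 2 libraries of that group, against 115 CPM or more in day 2 cells with the empty virus. Cdh1 averaged 0.449 CPM in MEFs with the empty virus and 175 CPM with the Cdh1 virus. Dot1l averaged 87.7 CPM without and 89.9 CPM with inhibitor at day 2 of the timecourse, and since the drug blocks the enzyme this level does not check the treatment. Levels below are CPM, counts scaled to library sizes that carry edgeR's TMM normalization factors, unless given as TPM, which also divides by gene length. CPM were computed within each experiment, so levels of different experiments stand on separate scales. A change is called when its adjusted p is under 0.05, and log2 fold changes are given ± SE. No label ties replicates to separate cultures. The p-values rest on the spread between replicate libraries, estimated for each gene over all groups of an experiment. That spread may be technical. In these bulk samples, fewer cells of a type and less RNA per cell cannot be told apart.

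The ligand genes moved in opposite directions during the first days of reprogramming in the timecourse, and Jag1 stayed the highest of them. Jag1, the main ligand gene of MEFs, was at 153 and 157 CPM in MEFs, at 89.9 and 90.7 CPM at day 2 and at 80.5 and 84.2 CPM at day 4. MEF libraries were the highest and did not overlap with either day. Jag1 had fallen by 0.91 ± 0.04 on the log2 scale at day 4 (adjusted p = 1.3e-23). Jag2, a second ligand of the Jagged class, went the other way, from 0.38 and 0.427 CPM in MEFs to 7.94 and 7.85 CPM at day 2 and 20.6 and 20.1 CPM at day 4. Libraries of successive days did not overlap, and by day 4 Jag2 stood 50.1-fold above MEFs (log2 change 5.65 ± 0.14, adjusted p = 4.27e-32). Dll1, a ligand of the Delta class, rose from 0.507 and 0.481 CPM to 2.36 and 2.75 CPM at day 2 and 9.71 and 9.51 CPM at day 4 (4.27 ± 0.16 over MEFs, adjusted p = 1.44e-25).

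The sequences before the start sites of the 2 Jagged genes are shown because their levels moved in opposite directions. Each line holds the 250 bases upstream of the RefSeq start in build GRCm38.p6, 5′ to 3′ on the gene's strand, and capitals mark the GC box GGGCGG or its reverse complement CCGCCC. The Jag1 window is chr2:137116521-137116770 on the minus strand and the Jag2 window chr12:112929496-112929745 on the minus strand.
Jag1: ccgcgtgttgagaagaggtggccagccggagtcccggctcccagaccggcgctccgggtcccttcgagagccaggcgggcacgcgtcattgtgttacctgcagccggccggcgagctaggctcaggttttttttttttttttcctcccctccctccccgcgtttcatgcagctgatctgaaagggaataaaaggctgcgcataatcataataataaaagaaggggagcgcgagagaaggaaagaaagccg
Jag2: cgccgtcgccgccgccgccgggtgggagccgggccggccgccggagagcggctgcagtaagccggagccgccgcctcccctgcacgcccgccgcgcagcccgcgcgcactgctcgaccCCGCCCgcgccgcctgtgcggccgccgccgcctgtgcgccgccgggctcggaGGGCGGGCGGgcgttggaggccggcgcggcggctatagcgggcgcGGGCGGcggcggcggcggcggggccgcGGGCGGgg
The Jag2 window held 54 CpG dinucleotides and 5 GC boxes, 2 of them overlapping, at 87.2% G and C. The Jag1 window held 20 CpG dinucleotides and 0 GC boxes at 57.2% G and C. Over all 32851 windows of the table the medians were 6 CpG dinucleotides and 52.4% G and C, and 32.7% of windows held a GC box on either strand. Notch1, Notch2 and Notch3 had 5, 5 and 4 GC boxes in their windows, Notch4 and both windows of Dll1 had 0.

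**Figure D1:**
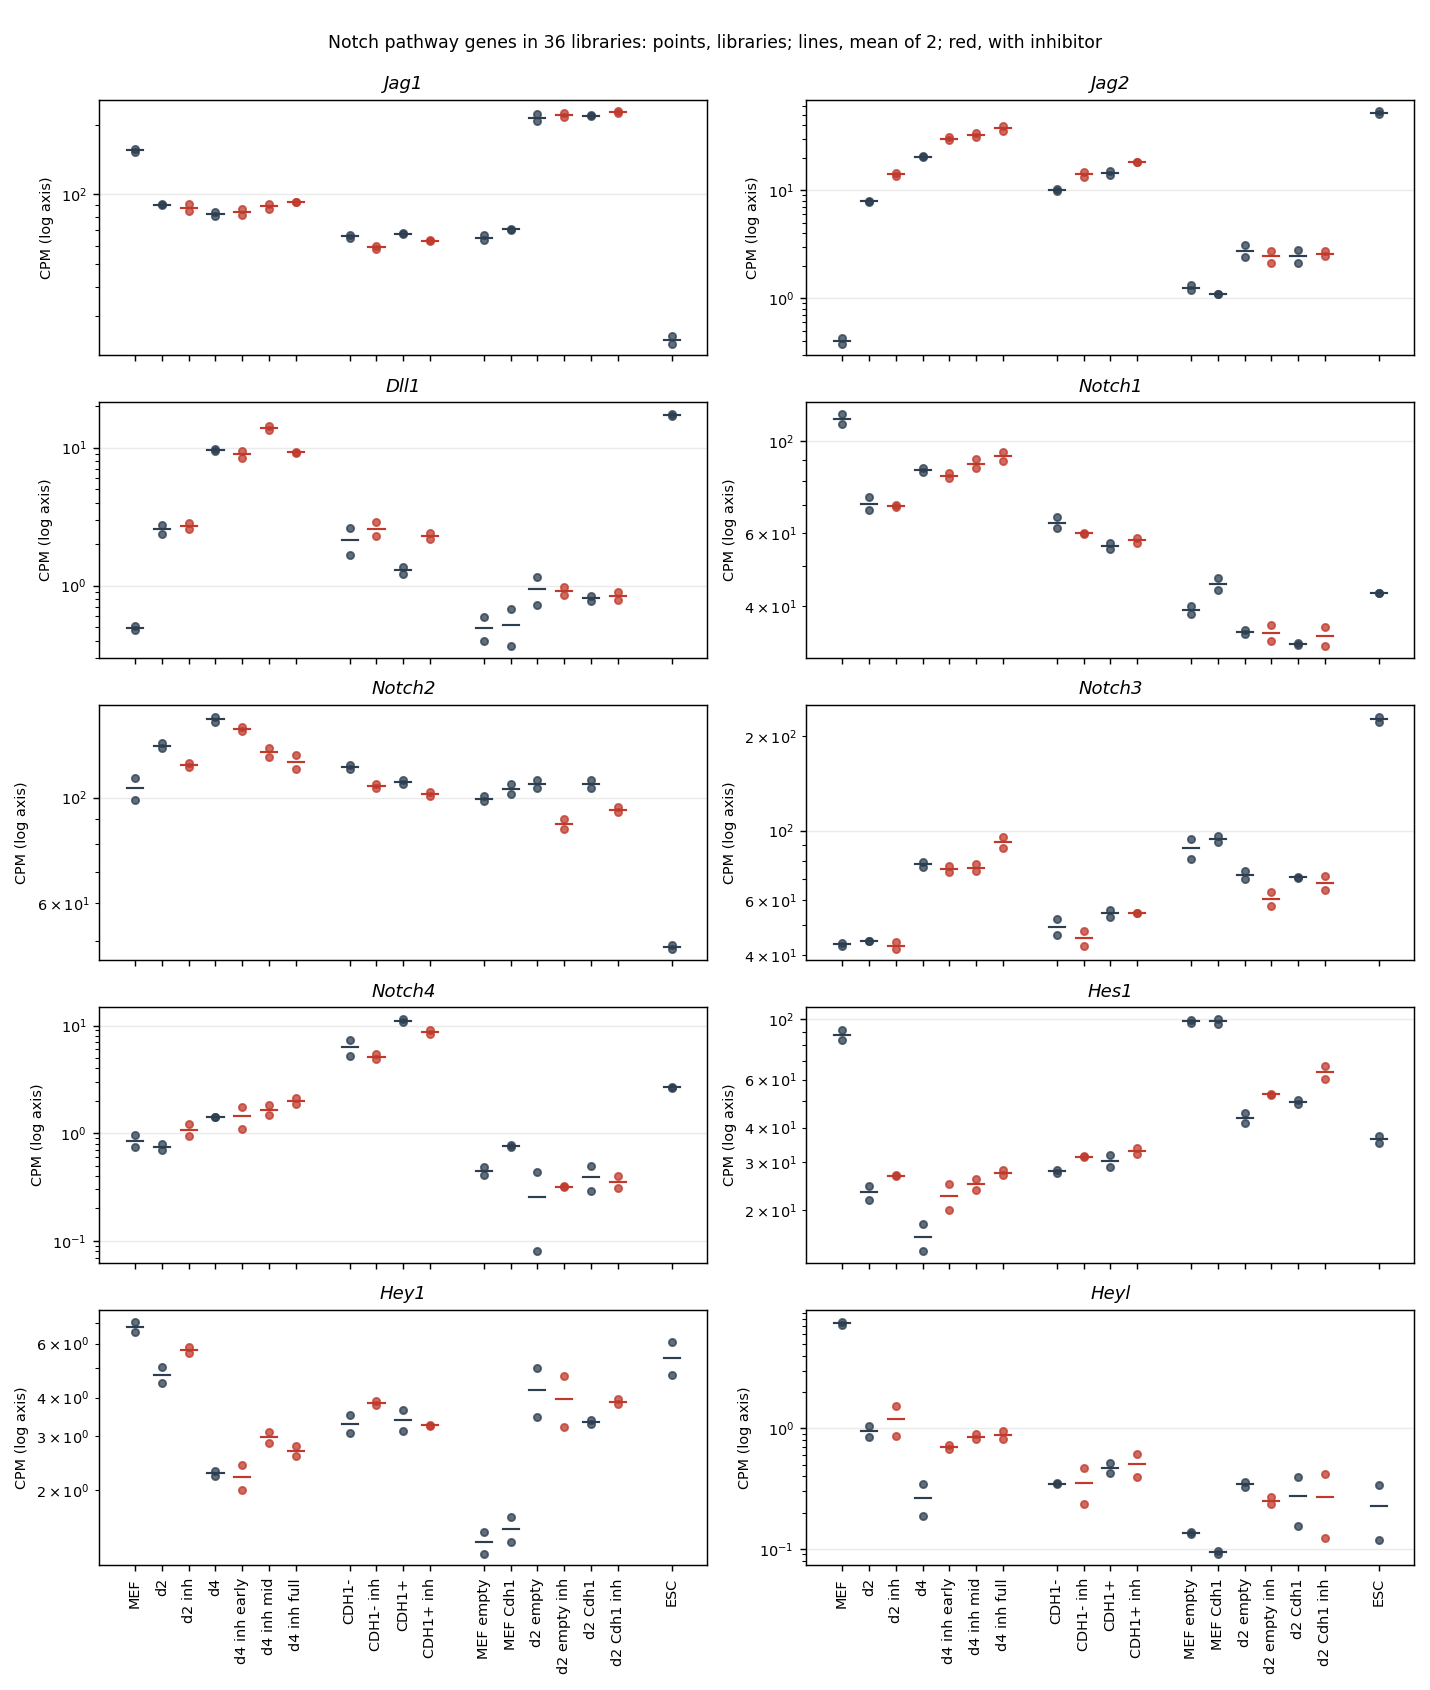
Level of each of the 10 genes in every library, in CPM on a log axis that differs between panels. Points are libraries, short lines the mean of the 2 libraries of a group, and red marks groups that received the inhibitor. Jag2 climbs from 0.404 CPM on average in timecourse MEFs to 37.4 CPM at day 4 with the full window. Within the lentivirus experiment, Jag1 is higher in day 2 cells than in MEFs.

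Per unit of length, the ligand pool of the timecourse moved from Jag1 alone to a mixture. Jag1 made up 99.2% of the summed TPM of the 3 ligands in MEFs, 86.3% at day 2 and 66.4% at day 4. Over the same steps the Jag2 share went from 0.342% to 9.89% and 21.5%, and the Dll1 share from 0.492% to 3.8% and 12.1%. Within the lentivirus experiment Jag1 kept between 96.4% and 98% of the ligand TPM in all 6 groups. In ESCs, Jag2 held 57.6%, Dll1 22.5% and Jag1 19.9%. These shares leave out Dll3, another ligand gene, which averaged 10.4 CPM in ESCs and 0.0907 CPM in empty-virus MEFs.

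**Figure D2:**
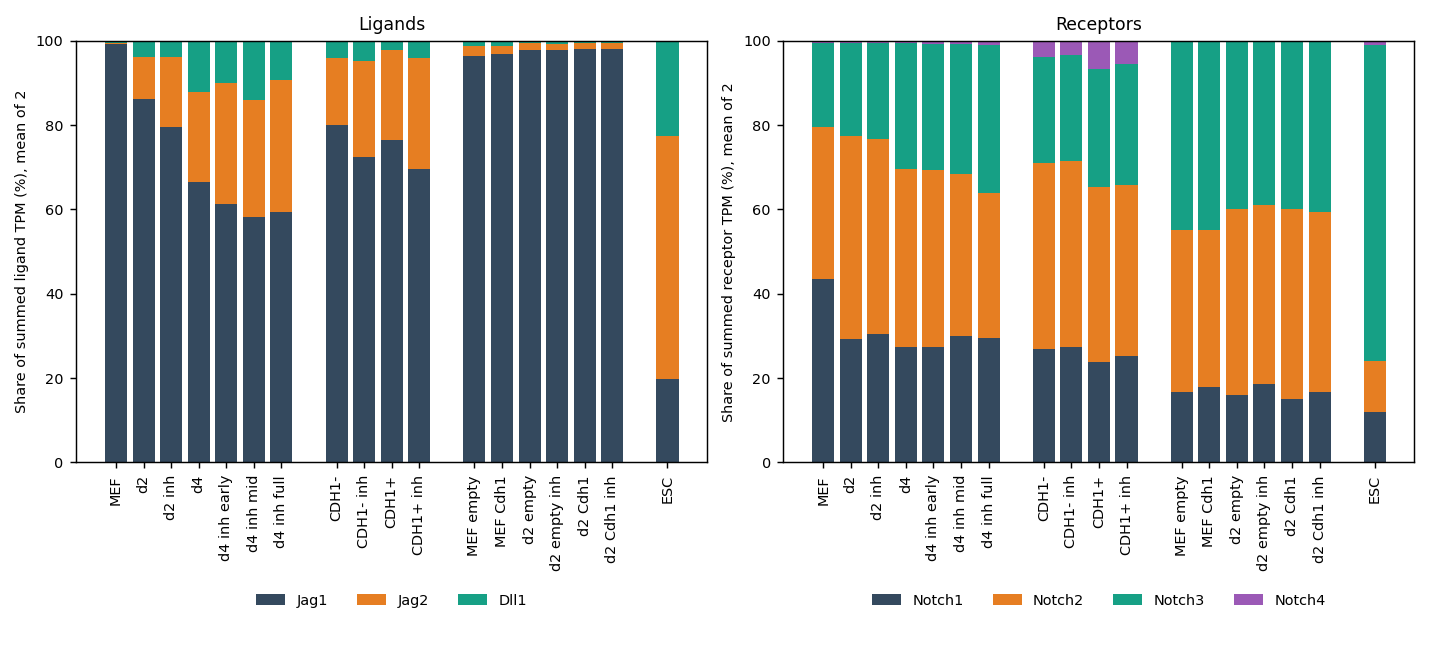
Share of each gene in the summed TPM of the 3 ligands (left) and of the 4 receptors (right), in percent, as the mean of the 2 libraries of a group. Jag1 fills 99.2% of the ligand bar in timecourse MEFs and 66.4% at day 4, and Notch3 fills 74.9% of the receptor bar in ESCs.

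The same first 2 days looked different for Jag1 in the lentivirus experiment. There Jag1 rose from 66.6 and 63.4 CPM in MEFs with the empty virus to 222 and 207 CPM at day 2 (1.72 ± 0.06, adjusted p = 1.21e-17), whereas it had fallen by 0.78 ± 0.04 in the timecourse (adjusted p = 4.69e-21). The difference between these 2 changes, 2.52 ± 0.07 on the log2 scale, was called in a joint fit of both experiments (adjusted p = 3.76e-27). That fit was chosen after the data were seen. Jag2 rose less in the lentivirus cells, from 1.19 and 1.32 CPM to 3.12 and 2.41 CPM (1.13 ± 0.21, adjusted p = 5.17e-05), a difference in change of -3.14 ± 0.31 (adjusted p = 4.01e-11). Dll1 was low in both, reaching 1.16 and 0.72 CPM at day 2 in the lentivirus cells from 0.595 and 0.397 CPM. Its rise there, 0.90 ± 0.34 (adjusted p = 0.0245), was lost without empty-virus MEF replicate 2 (adjusted p = 0.199) and without day 2 replicate 1 (adjusted p = 0.3). The experiments also differed in virus, in read layout and in spiked RNA, since the labels name paired-end reads and added RNA of the human cell line 293T for timecourse and sort only. The 5 macrophage markers summed to between 204 and 206 CPM in timecourse MEFs and between 1210 and 1320 CPM in empty-virus MEFs, and at day 2 to between 27.4 and 29.7 CPM and between 203 and 217 CPM. The summed level of the 6 smooth muscle and pericyte markers, most of it Acta2, moved in the directions of Jag1. The markers summed to between 7050 and 7270 CPM in timecourse MEFs and between 1850 and 1890 CPM at day 2. In lentivirus cells they summed to between 1300 and 1320 CPM and between 5360 and 5600 CPM, of which Acta2 averaged 931 and 5260 CPM. None was at 0 in these groups. All 6 fell in the timecourse (median -1.95), while 3 rose and 3 fell in lentivirus cells (median -0.33). The difference between the 2 changes was called higher for 5 of these 6, with a median of 1.88. Virus, layout and spike cannot be told apart from the experiment, and the part of either marker list was not tested.

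**Figure D3:**
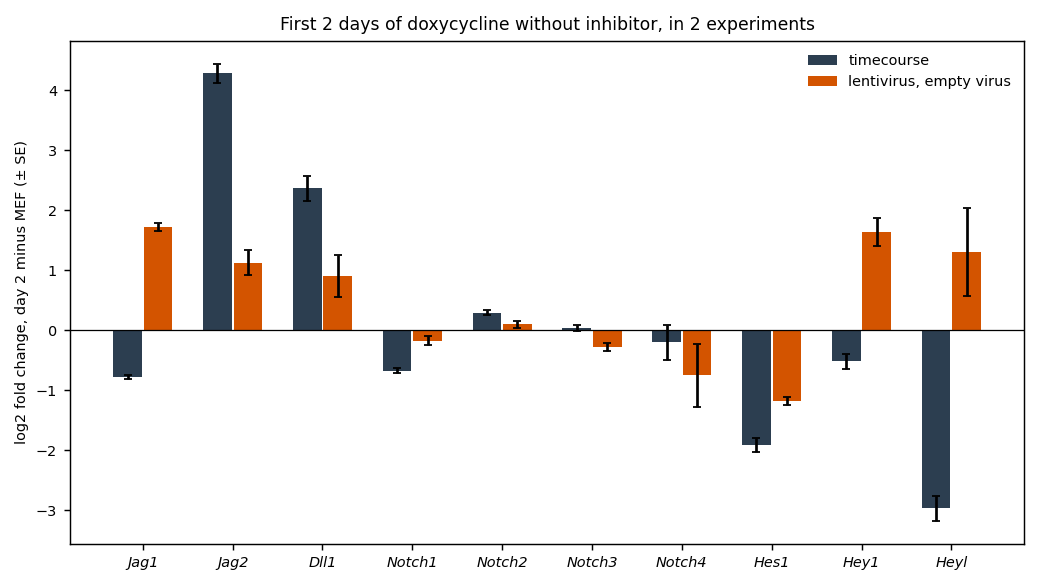
Log2 fold change from uninduced MEFs to day 2 with DMSO, for each gene in the timecourse and in the lentivirus experiment with the empty virus. Bars are fitted values and whiskers the SE. The bars of Jag1 point down at -0.78 and up at 1.72, and those of Hey1 down at -0.52 and up at 1.64.

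Jag2 was higher with than without the inhibitor in timecourse and sort. At day 2 it read 13.6 and 14.5 CPM with inhibitor against 7.94 and 7.85 CPM without, a log2 difference of 0.83 ± 0.08, which is the value that helped select the genes. At day 4 it rose from 20.6 and 20.1 CPM to 39.2 and 35.5 CPM with the full window (0.88 ± 0.06, adjusted p = 2.11e-14). The early window gave 30.9 and 29 CPM (0.56 ± 0.07, adjusted p = 8.61e-08) and the mid window 30.9 and 34 CPM (0.67 ± 0.07, adjusted p = 1.98e-10). All 3 windows lay above the control libraries they share. The full window exceeded the early window by 0.32 ± 0.06 (adjusted p = 9.67e-05). It exceeded the mid window by 0.20 ± 0.06 (adjusted p = 0.0185), a call lost without mid-window replicate 1 (adjusted p = 0.252) and without full-window replicate 1 (adjusted p = 0.29).

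Jag2 also rose with the inhibitor in sorted cells. It went from 9.76 and 10.3 CPM to 14.7 and 13.3 CPM in cells sorted as CDH1- (0.48 ± 0.08, adjusted p = 1.55e-06). In cells sorted as CDH1+ it went from 15.1 and 13.9 CPM to 18.1 and 18.2 CPM (0.33 ± 0.07, adjusted p = 0.000341). The difference between the 2 effects was -0.15 ± 0.11, with an interval from -0.37 to 0.06. In the lentivirus experiment the libraries overlapped: 3.12 and 2.41 CPM without and 2.14 and 2.75 CPM with inhibitor in the presence of the empty virus. The log2 difference there was -0.15 ± 0.18, with a 95% interval from -0.51 to 0.21, and with the Cdh1 virus it was 0.09 ± 0.17, from -0.24 to 0.41. These differences were not tested against that of the timecourse.

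Epithelial markers moved with Jag2 under the inhibitor. The summed level of the 6 markers (Cdh1, Epcam, Krt8, Krt18, Cldn3 and Cldn7) was between 6.97 and 7.17 CPM at day 2 of the timecourse and between 17.1 and 17.3 CPM with inhibitor. At day 4 it was between 16.9 and 17.3 CPM in controls and between 70.3 and 72.8 CPM with the full window. With the empty virus at day 2 it was between 12.6 and 12.7 CPM without and between 12.5 and 16 CPM with inhibitor. None of the 6 was at 0 in any of these groups, and their part in the Jag2 result was not tested.

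The other ligands responded less uniformly. Dll1 rose with the mid window, from 9.71 and 9.51 CPM to 14.3 and 13.3 CPM (0.52 ± 0.09, adjusted p = 1.3e-05). With the full window it read 9.18 and 9.34 CPM (-0.05 ± 0.09, adjusted p = 0.699), and the full window was below the mid window by -0.58 ± 0.09 (adjusted p = 4.44e-06). In CDH1+ cells, Dll1 rose from 1.21 and 1.37 CPM to 2.4 and 2.17 CPM (0.81 ± 0.20, adjusted p = 0.00143). The CDH1- libraries overlapped, at 2.6 and 1.66 CPM without and 2.3 and 2.87 CPM with inhibitor, and the difference between the 2 effects was not called (0.55 ± 0.28, adjusted p = 0.755). Jag1 rose slightly with the full window, from 80.5 and 84.2 CPM to 92.8 and 93 CPM (0.17 ± 0.04, adjusted p = 0.00055). It fell in CDH1- cells, from 66.7 and 65.2 CPM to 59.7 and 58.4 CPM (-0.16 ± 0.04, adjusted p = 0.00149), and limma on TPM did not call this fall. The mid-window change of Jag1, 0.11 ± 0.04 (adjusted p = 0.0349), was lost under DESeq2, RLE scaling, no low-count filter and limma on both TPM scales. It was also lost without day 4 control replicate 1 (log2 change 0.08), control replicate 2 (0.14) or mid-window replicate 2 (0.08).

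The other 8 genes at day 2 of the timecourse, Notch2 aside, differed with the inhibitor by between -0.05 and 0.55 on the log2 scale. The highest of these was Notch4, at 0.935 and 1.23 CPM with and 0.796 and 0.694 CPM without inhibitor (0.55 ± 0.28, no test). Jag1 read 85 and 90.7 CPM against 89.9 and 90.7 CPM, and Dll1 2.58 and 2.86 CPM against 2.36 and 2.75 CPM, with overlapping libraries in both.

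Among the receptors, Notch1 fell and Notch2 rose during reprogramming in the timecourse. Notch1 read 110 and 116 CPM in MEFs, 68.1 and 73.1 CPM at day 2 and 84.3 and 86.1 CPM at day 4. The fall to day 2 was 0.68 ± 0.04 (adjusted p = 3.27e-18), and from day 2 to day 4 Notch1 rose by 0.27 ± 0.04 (adjusted p = 2.4e-07). Notch2, which shares most of its architecture with Notch1, rose from 99.1 and 110 CPM to 130 and 127 CPM at day 2 and 148 and 144 CPM at day 4 (0.48 ± 0.04 over MEFs, adjusted p = 6.08e-14). Notch3, a receptor typical of smooth muscle and pericytes, was at 42.8 and 43.9 CPM in MEFs and at 44.6 and 44.5 CPM at day 2. It then rose to 76.8 and 79.4 CPM at day 4 (0.85 ± 0.05 over MEFs, adjusted p = 4.42e-20). From MEFs to day 4 all 6 smooth muscle and pericyte markers fell (median -2.25). From day 2 to day 4, where Notch3 rose, 2 of them rose and 3 fell, and all 5 macrophage markers rose (median 1.97). Their part in the Notch3 rise was not tested. By length, Notch1 was the leading receptor of timecourse MEFs with 43.4% of receptor TPM, and Notch2 led at day 4 with 42.2%.

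Within the lentivirus experiment, Notch3 led the receptors of MEFs with the empty virus at 44.6% of receptor TPM, and Notch1 held 16.7%. From there to day 2, Notch3 fell from 94.2 and 81.2 CPM to 74.1 and 70.3 CPM (-0.28 ± 0.07, adjusted p = 0.00158), a call lost without MEF replicate 1 (adjusted p = 0.0884). Notch1 went from 40 and 38.2 CPM to 35 and 34.2 CPM (-0.18 ± 0.07, adjusted p = 0.0417), a call lost without any 1 of the 4 libraries (adjusted p between 0.0609 and 0.206). Notch2 went from 98.2 and 101 CPM to 109 and 105 CPM (0.10 ± 0.06, adjusted p = 0.131).

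Notch2 was lower with the inhibitor than without in every experiment. The day 4 libraries read 123 and 115 CPM with the full window against 148 and 144 CPM in controls (-0.30 ± 0.04, adjusted p = 6.48e-08). They read 122 and 127 CPM with the mid window (-0.23 ± 0.04, adjusted p = 2.69e-05) and 138 and 141 CPM with the early window (-0.06 ± 0.04, adjusted p = 0.436). The full window was below the early window by -0.24 ± 0.04 (adjusted p = 9.07e-06). At day 2 of the timecourse the values were 118 and 116 CPM with and 130 and 127 CPM without inhibitor (-0.13 ± 0.04, no test). In sorted cells, Notch2 fell from 117 and 115 CPM to 107 and 105 CPM in the CDH1- fraction (-0.13 ± 0.03, adjusted p = 0.00386). That call was lost under limma on both TPM scales and without CDH1- control replicate 1 (log2 change -0.10). The CDH1+ fraction read 109 and 107 CPM against 103 and 101 CPM (-0.08 ± 0.03, adjusted p = 0.0695).

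In the lentivirus cells, Notch2 fell from 109 and 105 CPM to 86.1 and 90.3 CPM with the empty virus (-0.27 ± 0.06, adjusted p = 0.00532). This call was lost without empty-virus control replicate 1 (adjusted p = 0.0856) or inhibitor replicate 1 (adjusted p = 0.0961). With the Cdh1 virus it read 109 and 105 CPM against 95.5 and 93.3 CPM (-0.18 ± 0.06, adjusted p = 0.0724). The changes were small, at most 1.23-fold, and in each of these comparisons the libraries with inhibitor lay below those without.

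Notch3 was called in opposite directions in different experiments. With the full window it rose, at 95.6 and 87.9 CPM against 76.8 and 79.4 CPM in day 4 controls (0.23 ± 0.04, adjusted p = 2.58e-05), and it exceeded the early and mid windows by 0.28 ± 0.04 and 0.27 ± 0.04 (adjusted p = 1.45e-06 and 9.74e-06). Of the 6 smooth muscle and pericyte markers, 3 were higher with the full than with the early window and 2 higher than with the mid window, and their part was not tested. With the early and mid windows it read 77.3 and 73.8 CPM and 74.2 and 78 CPM. In lentivirus cells with the empty virus it was lower, at 57.3 and 63.6 CPM against 74.1 and 70.3 CPM (-0.25 ± 0.07, adjusted p = 0.0401). That call was lost without either control library (adjusted p = 0.266 and 0.0918) or inhibitor replicate 1 (adjusted p = 0.376). Notch1 was higher with the full window by 0.11 ± 0.04 (adjusted p = 0.0368). This was lost under DESeq2, RLE scaling, no low-count filter and limma on both TPM scales. It was also lost without control replicate 1 (log2 change 0.09), control replicate 2 (0.11) or full-window replicate 1 (0.06).

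Notch4, the receptor known from endothelium, was the least abundant receptor, at or below 2.13 CPM in every timecourse library. Within the sort experiment it was higher in CDH1+ cells, at 11.5 and 10.7 CPM against 5.21 and 7.33 CPM in CDH1- cells (0.83 ± 0.11, adjusted p = 1.34e-09). The same order held under inhibitor, at 8.28 and 9.13 CPM against 5.46 and 4.85 CPM (0.76 ± 0.11, adjusted p = 5.17e-08). With inhibitor, Notch4 fell in CDH1+ cells by 0.35 ± 0.10 (adjusted p = 0.00698). That call was lost without CDH1+ control replicate 1 (adjusted p = 0.134) or inhibitor replicate 1 (adjusted p = 0.0919), and under DESeq2 and limma.

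Of 6 endothelial markers, Cdh5, Emcn, Tie1 and Pecam1 were each below 0.4 CPM on average in the 4 sort groups, Kdr lay between 2.28 and 2.95 CPM and Tek between 60 and 66.8 CPM. The summed endothelial level was between 65.1 and 69.3 CPM in CDH1+ controls and between 67 and 72.5 CPM in CDH1- controls. The 5 macrophage markers summed to between 59.1 and 60.4 CPM in CDH1+ controls and between 9.81 and 10 CPM in CDH1- controls, with Lyz2 the highest and none at 0. With inhibitor they summed to between 43 and 43.5 CPM in CDH1+ cells. Between CDH1+ and CDH1- controls, 5 of 6 epithelial markers (median log2 change 1.40) and 4 of 4 tested pluripotency markers (2.30) were also higher. The part of these lists in the Notch4 difference was not tested.

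The sorted fractions differed in other members too. Jag2 was higher in CDH1+ than in CDH1- controls by 0.53 ± 0.08 (adjusted p = 1.15e-07) and under inhibitor by 0.37 ± 0.07 (adjusted p = 2.72e-05). Epithelial markers, 1 of which was the sorted protein's gene, summed to between 137 and 139 CPM against 46.3 and 48.4 CPM. Notch3 was higher in CDH1+ cells under inhibitor, at 54.7 and 54.5 CPM against 47.8 and 43 CPM (0.26 ± 0.05, adjusted p = 1.41e-05). Also higher there were 4 of the 6 smooth muscle and pericyte markers and all 5 macrophage markers. So were 5 of 6 epithelial and 4 of 4 tested pluripotency markers, and the part of these lists in the Notch3 difference was not tested. Notch1 was lower in CDH1+ controls, at 56.6 and 54.8 CPM against 61.5 and 65.4 CPM (-0.19 ± 0.04, adjusted p = 0.000194), a call lost under limma on both TPM scales. Calls of Dll1 (-0.72 ± 0.21), Notch2 (-0.10 ± 0.03) and Notch3 (0.14 ± 0.05) between the control fractions were lost under DESeq2, under limma and without CDH1- replicate 1 (adjusted p = 0.383, 0.164 and 0.46) or CDH1+ replicate 1 (0.0843, 0.0733 and 0.217). Notch2 was also lost without CDH1+ replicate 2 (0.128).

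Hes1, a repressor that many signals besides Notch induce, fell early in both reprogramming experiments. In the timecourse it read 91.2 and 83.6 CPM in MEFs, 21.8 and 24.5 CPM at day 2 and 17.8 and 14.1 CPM at day 4, with no overlap between steps. It had fallen by 1.92 ± 0.11 at day 2 (adjusted p = 5.93e-08) and by 2.45 ± 0.12 at day 4 (adjusted p = 7.52e-09). In the lentivirus experiment it fell from 96.8 and 99.2 CPM to 45.2 and 41.7 CPM (-1.17 ± 0.07, adjusted p = 1.83e-13), less than in the timecourse by 0.76 ± 0.12 (adjusted p = 7.59e-06).

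Hes1 was higher with the inhibitor than without in every experiment. At day 4 it rose from 17.8 and 14.1 CPM to 26.8 and 28 CPM with the full window (0.78 ± 0.13, adjusted p = 0.000846) and to 25.9 and 23.7 CPM with the mid window (0.63 ± 0.13, adjusted p = 0.00543). The early window gave 19.9 and 24.9 CPM (0.49 ± 0.13, adjusted p = 0.0605), a change that DESeq2 called. At day 2 of the timecourse the values were 26.8 and 26.5 CPM with and 21.8 and 24.5 CPM without inhibitor (0.20 ± 0.12, no test). In CDH1- cells Hes1 rose from 27.9 and 27.4 CPM to 31.6 and 31.1 CPM (0.18 ± 0.06, adjusted p = 0.0114). This call was lost without CDH1- control replicate 2 (adjusted p = 0.0881) or inhibitor replicate 1 (0.0719), and under DESeq2. CDH1+ cells read 31.7 and 28.7 CPM without and 32.1 and 33.6 CPM with inhibitor (0.12 ± 0.05, adjusted p = 0.0951).

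At day 2 of the lentivirus experiment, Hes1 rose from 45.2 and 41.7 CPM to 53.2 and 52.7 CPM with the empty virus (0.29 ± 0.07, adjusted p = 0.0134). It rose from 50.3 and 49 CPM to 60.3 and 67.4 CPM with the Cdh1 virus (0.36 ± 0.07, adjusted p = 0.00225). The first call was lost without control replicate 2 (adjusted p = 0.151) or inhibitor replicate 1 (0.0913), and the second without control replicate 2 (0.0571). The difference between the 2 effects was 0.08 ± 0.10 (adjusted p = 0.927).

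**Figure D4:**
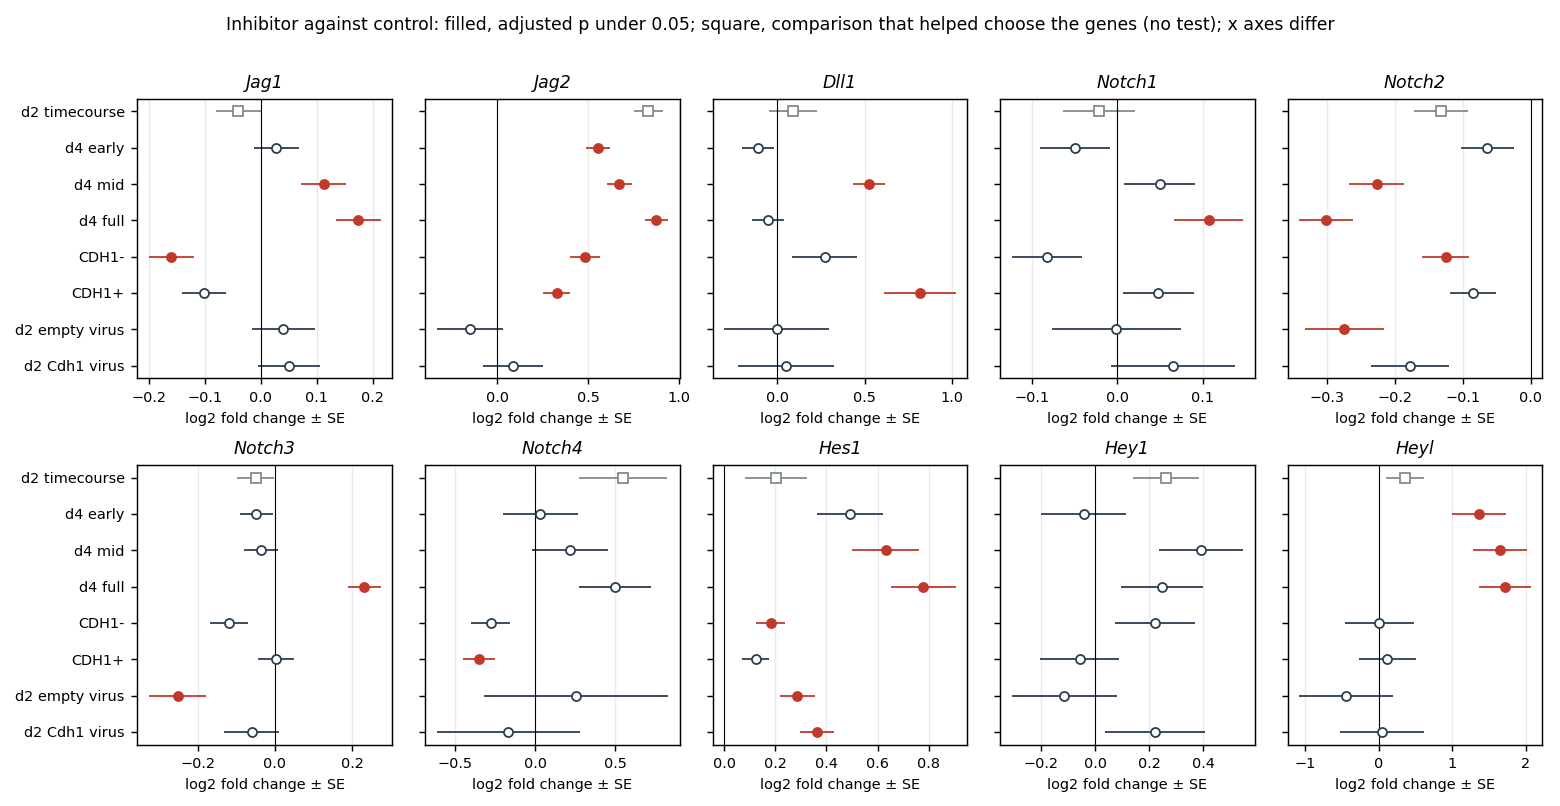
Log2 fold change of inhibitor against its control in 8 comparisons for each gene, with the SE as whiskers and an x axis that differs between panels. Filled circles have an adjusted p under 0.05, and the grey square is the comparison that helped select the genes and carries no test. Points of Hes1 all lie right of 0, between 0.12 and 0.78, and those of Notch2 all left of 0, between -0.30 and -0.06; the 3 day 4 comparisons share their control libraries.

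Hey1 and Heyl, repressors of the Hey family, fell in the timecourse. Hey1 read 6.56 and 7.08 CPM in MEFs, 4.45 and 5.05 CPM at day 2 and 2.22 and 2.31 CPM at day 4, a fall of 1.59 ± 0.14 by day 4 (adjusted p = 6.69e-14). In lentivirus cells it rose instead, from 1.24 and 1.46 CPM to 5 and 3.46 CPM at day 2 (1.64 ± 0.24, adjusted p = 1.97e-06). The difference between the 2 changes was 2.17 ± 0.26 (adjusted p = 3.97e-09), in the same direction as that of Jag1. No comparison with inhibitor called Hey1. Its differences lay between -0.11 and 0.39, with the mid window highest at 2.85 and 3.09 CPM against 2.22 and 2.31 CPM (0.39 ± 0.16, adjusted p = 0.0546, called by limma on TPM).

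Heyl was at 7.65 and 7.21 CPM in timecourse MEFs, 0.846 and 1.04 CPM at day 2 and 0.345 and 0.187 CPM at day 4 (-4.78 ± 0.26 from MEFs, adjusted p = 3.73e-20). The lentivirus MEFs with the empty virus had 3 reads of Heyl in each library, or 0.137 and 0.132 CPM. Muscle markers were also highest in timecourse MEFs. Myod1, Myog, Myh3 and Acta1 summed to between 58.1 and 58.9 CPM in timecourse MEFs, to between 1.47 and 2.13 CPM at day 2 and to between 2.56 and 3.13 CPM in empty-virus MEFs, with Myod1 at 0 in the last 2 groups. In the sort, where Heyl was at most 0.616 CPM, they summed to between 18.6 and 24.5 CPM, nearly all of it Acta1. The smooth muscle sums given with Jag1 were higher in timecourse MEFs too. The part of either list in the Heyl values was not tested.

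Heyl rose with each window of the inhibitor at day 4, to 0.815 and 0.954 CPM with the full window (1.71 ± 0.35, adjusted p = 0.000128). The mid window gave 0.894 and 0.806 CPM (1.65 ± 0.37, adjusted p = 0.00056) and the early window 0.727 and 0.667 CPM (1.36 ± 0.37, adjusted p = 0.016). These rest on 16 and 8 reads in the control libraries against 46 or fewer in the treated ones. The early call was lost without control replicate 2 (adjusted p = 0.281), early replicate 1 (0.104) or early replicate 2 (0.071), and under limma. In sorted and lentivirus cells Heyl stayed below 0.7 CPM in every library and its groups differed by less than the test could call.

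In ESCs the pathway had another make-up than in the MEFs they were fitted with. Jag2 stood at 50.9 and 53.4 CPM against 1.19 and 1.32 CPM in empty-virus MEFs (5.37 ± 0.15, adjusted p = 1.48e-20) and Dll1 at 17.5 and 16.9 CPM against 0.595 and 0.397 CPM (5.11 ± 0.21, adjusted p = 3.41e-17). Jag1 was lower, at 22.7 and 24.6 CPM against 66.6 and 63.4 CPM (-1.46 ± 0.06, adjusted p = 1.6e-16). Notch3 was the leading receptor, at 48.8 ± 1.03 TPM (SD, n = 2) against 7.92 ± 0.0495 TPM for Notch2 and 7.75 ± 0.0283 TPM for Notch1. Notch3 was 2.58-fold above MEFs (1.37 ± 0.07, adjusted p = 3.78e-15), and Notch2 lower (-1.03 ± 0.06, adjusted p = 3.57e-14). Notch1 differed by 0.14 ± 0.07 (adjusted p = 0.0853), and by -0.25 with limma on log2(TPM + 1). Hes1 was lower than in MEFs (-1.44 ± 0.07, adjusted p = 5.57e-16) and Hey1 higher, at 4.74 and 6.06 CPM against 1.24 and 1.46 CPM (2.00 ± 0.22, adjusted p = 1.33e-08). The 6 pluripotency markers checked the label, with Dppa5a at 1350 CPM and Nanog at 156 CPM. The 7 fibroblast markers summed to between 155 and 178 CPM, against 25700 CPM or more in empty-virus MEFs.

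With the Cdh1 virus alone none of the 10 genes was called, beside 1.14% of all tested genes in MEFs and 0.897% at day 2. A count so near these shares says nothing particular about the 10 genes. The lowest unadjusted p-values were those of Notch1 in MEFs, at 43.8 and 46.7 CPM against 40 and 38.2 CPM (0.21 ± 0.07, adjusted p = 0.271), and of Hes1 at day 2, at 50.3 and 49 CPM against 45.2 and 41.7 CPM (0.19 ± 0.07, adjusted p = 0.266). The count in MEFs was also 0 without the library of conflicting labels.

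Counted over the 10 genes, 8 were called between MEFs and day 2 of the timecourse, 3 higher and 5 lower, where 74.4% of all tested genes were called. Between MEFs and day 4 all 10 were called, 5 higher and 5 lower, beside 82.2% of all genes. Between day 2 and day 4 all 10 were called, 6 higher and 4 lower, beside 77.8%. In lentivirus cells, 7 were called from MEFs to day 2, 4 higher and 3 lower, beside 66.0%, and the change differed between experiments for 9 genes, beside 54.9%. ESCs differed from MEFs in 8 genes, 5 higher and 3 lower, beside 88.7%. Most genes of the table changed in these comparisons too. Without timecourse MEF replicate 2 the day 4 call of Notch4 was lost (adjusted p = 0.103), and without day 4 control replicate 1 the fall of Jag1 from day 2 (adjusted p = 0.0691).

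With the inhibitor, 7 of the 10 were called under the full window (6 higher, 1 lower), beside 34.8% of all genes. The early window called 2, beside 5.63%, and the mid window 6 (5 higher, 1 lower), beside 27.4%. The full window differed from the early window in 5, beside 31.0%, and from the mid window in 3, beside 20.1%. These comparisons share libraries. Between full and early windows, Jag1 and Notch1 were lost without early-window replicate 2 (adjusted p = 0.128 and 0.0552), and Notch1 without full-window replicate 1 (adjusted p = 0.106). At day 2 of the timecourse 17.8% of all genes were called. No result is read from the 10 genes there, since Jag2 in that comparison helped select them. The median log2 change of the 10 under the full window was 0.24 and that of all tested genes -0.0046.

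In the sort, 4 were called with inhibitor in CDH1- cells, beside 18.7%, and 3 in CDH1+ cells, beside 18.8%. The fractions differed in 6 without inhibitor, beside 26.6%, and in 3 with it, beside 26.8%. The effect of the inhibitor differed between fractions for 0 of the 10 by edgeR, beside 0.186%, with 1 at an unadjusted p under 0.05 and 0 by DESeq2 and limma. At day 2 with the empty virus the inhibitor changed 3, beside 6.73%, and with the Cdh1 virus 1, beside 5.05%. The Cdh1 virus changed 0 in MEFs, beside 1.14%, and 0 at day 2, beside 0.897%, each with 1 at an unadjusted p under 0.05 and 0 by DESeq2 and limma. Its effect on the response to the inhibitor was called for 0 of the 10 by all 3 tools, beside 0.0%, with 0 at an unadjusted p under 0.05.

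Of 5 inhibitor comparisons with separate control libraries (the full window, both sorted fractions and both viruses), Hes1 had both inhibitor libraries above both controls in each, beside 2.18% of 13676 genes. Notch2 had both below in each, beside 3.31%. None of the other 8 genes kept 1 direction in this way.

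The rest of the pathway was read from a list of 57 genes, of which 54, 53 and 55 passed the filter in timecourse, sort and lentivirus fits. From MEFs to day 4 of the timecourse, 25 of 54 rose and 21 fell, beside 82.2% of all genes called, with a median of 0.14 against 0.01 for all genes. Nrarp, a direct Notch target that feeds back to limit the pathway, rose from 3.72 CPM on average in MEFs to 19.4 at day 2 (2.38 ± 0.08) and 35.5 at day 4 (3.25 ± 0.07, adjusted p = 3.85e-33), while Hes1, Hey1 and Heyl fell. In lentivirus cells Nrarp averaged 0.112 CPM in MEFs and 9.78 CPM at day 2. The other Hey gene, Hey2, rose by 1.17 ± 0.09 from MEFs to day 2 and fell by 1.02 ± 0.09 from day 2 to day 4.

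The atypical ligand genes Dlk1 and Dlk2, whose products lack the domain for activating receptors, moved in opposite directions. Dlk1 fell from 190 CPM to 21.2 CPM at day 2 (-3.17 ± 0.05, adjusted p = 1.4e-36) and Dlk2 rose from 2.94 to 23.4 CPM (2.99 ± 0.09, adjusted p = 4.78e-29). The lentivirus cells gave the same signs, -1.98 ± 0.07 and 2.45 ± 0.16. Among coactivators, Maml3 rose 2.29 ± 0.08 by day 4. Rbpj, which binds the receptor domain on DNA, stood at 168 CPM in MEFs and 106 CPM at day 4.

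With the full window, 12 of 54 pathway genes rose and 8 fell, beside 34.8% of all genes called. With the early window 1 rose and 4 fell, beside 5.63%, and with the mid window 5 rose and 15 fell, beside 27.4%. Neurl1a, a ligase that sends ligands into the cell, rose by 0.73 ± 0.12 (adjusted p = 2.5e-06) and Dlk2 by 0.36 ± 0.06 with the full window. The coactivator Maml2 fell by 0.45 ± 0.05 (adjusted p = 3.92e-10), and the corepressors Ctbp2 and Tle2 fell by 0.45 ± 0.04 and 0.68 ± 0.09. Maml2 and Ctbp2 also fell in CDH1- cells (-0.22 ± 0.06 and -0.23 ± 0.04) and CDH1+ cells (-0.26 ± 0.05 and -0.13 ± 0.04). In sorted cells 5 of 53 rose and 6 fell in the CDH1- fraction, beside 18.7%, and 5 rose and 4 fell in the CDH1+ fraction, beside 18.8%. With the empty virus 1 of 55 rose and 2 fell, beside 6.73%, and with the Cdh1 virus 0 were called by edgeR, beside 5.05%, with 4 at an unadjusted p under 0.05 and 0 by DESeq2 and limma. In ESCs 20 of 55 were higher and 33 lower than in MEFs, beside 88.7% of all genes called, and all 10 receptor protease genes were among the lower.

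For comparison, the window of Hes5, a target with known RBPJ sites that stayed below 0.7 CPM in every group, is shown with the RBPJ core TGGGAA or its reverse complement TTCCCA in capitals. It was chosen after its values were seen and lies at chr4:154960673-154960922 on the plus strand of GRCm38.p6, 250 bases upstream of the RefSeq start.
Hes5: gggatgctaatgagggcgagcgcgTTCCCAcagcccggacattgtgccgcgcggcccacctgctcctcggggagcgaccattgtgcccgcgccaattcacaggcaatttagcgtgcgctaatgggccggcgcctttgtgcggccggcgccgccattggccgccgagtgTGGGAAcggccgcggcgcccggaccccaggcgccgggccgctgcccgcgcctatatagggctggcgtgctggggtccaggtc
This window held 2 cores, 1 on each strand, that of Hey2 held 1 and that of the target Nrarp 0, and the windows of the 3 ligands and 4 receptors held 0. Across all windows 21.6% held the core on either strand.

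Genes whose group means followed a member most closely were found over the 17 groups other than ESCs, as Pearson r of log2 CPM after each experiment's mean was subtracted, among 11301 genes. These groups share libraries of the same experiments and depths, and r is a description. For Jag2 they were Pde9a (0.984), a phosphodiesterase gene, Ppp1r9a (0.984) and the TNF-family ligand gene Tnfsf9 (0.981). For Notch1 they were the Wnt modulator gene Dkk2 (0.935), the Wnt receptor gene Fzd2 (0.935) and the sterol synthesis gene Lss (0.934). For Hes1 they were the interferon receptor gene Ifngr2 (0.986), Ptprd (0.979) and Fxyd5 (0.979). Among the members themselves, Jag2 followed Dll1 (r = 0.93) and ran against Hes1 (-0.81), although Jag2 and Hes1 both rose with the full window. Jag1 followed Hey1 (0.82), Notch4 followed Notch3 (0.79) and Notch3 ran against Hey1 (-0.85).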

How the data were processed

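Polyadenylated RNA was sequenced in 36 libraries. The deposited expected counts were estimated per gene by RSEM 1.2.4, per the file headers and the submitters' processing notes, which also name Trimmomatic, Bowtie and the builds mm9 and hg18 without a role. The deposited TPM values are scaled for effective gene length, per the file headers. Effective length equalled gene length in the lentivirus and ESC files only, so TPM values and shares are comparable within an experiment, and with ESCs only for the lentivirus cells.

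Expected counts were rounded and tested with the quasi-likelihood test of edgeR 4.0.16 in R 4.3.3 (TMM, filterByExpr with minimum count 10, 1 coefficient per group, Benjamini-Hochberg over all genes tested). The timecourse (14 libraries, 14473 genes), the sort (8, 13968) and the lentivirus libraries with ESCs (14, 15044) were fitted apart, and a joint fit (28, 15452) was added after seeing the data. Intervals of 95% use the fitted SE and a normal quantile. The steps were tested on simulated data. Replicates of every group differed by more than counting noise.

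The 10 genes, the 57 pathway genes and the markers were chosen with earlier results of these data known. Named pathway genes were up to 4 called genes per direction with the largest change and a mean log2 CPM of at least 1. Levels given for Rbpj, Hes5 and Dll3 fall outside this rule and were chosen after their values were seen. Promoter windows come from RefSeq (GRCm38.p6), matched by symbol for 7 of the 10 genes. Alternatives were DESeq2 1.42.0, RLE scaling, no filter, a replicate block, limma 3.58.1 on log2(TPM + 1) and log2(TPM + 0.1), fitting only the groups compared, and leaving out each library. Counts cover 18.5 M to 50.9 M per library.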

Additional observations from a re-analysis of the deposited data

Results flagged for a closer look

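From MEFs to day 2 without inhibitor, the change differed between the lentivirus and timecourse experiments for 9 of the 10 genes. Of all tested genes, 54.9% differed too. These calls come from the test of the difference in the joint fit, which was added after seeing the data. On the log2 scale, lentivirus minus timecourse, the difference was 2.52 for Jag1, 2.17 for Hey1, 4.30 for Heyl, 0.76 for Hes1 and 0.52 for Notch1. It was -3.14 for Jag2, -1.44 for Dll1, -0.30 for Notch3 and -0.18 for Notch2. For Jag1 and Hey1 the 2 changes had opposite signs and both were called. The Heyl value rests on 3 reads in each empty-virus MEF library. The Dll1 and Notch3 differences were lost without empty-virus MEF replicate 1 (adjusted p = 0.109 and 0.0555 by edgeR), and that of Notch2 without any of 4 libraries (timecourse MEF replicate 1, day 2 replicate 1, empty-virus MEF replicate 2 or day 2 replicate 2; adjusted p between 0.0637 and 0.276).

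With the inhibitor, both Notch1 libraries lay below the controls in CDH1- cells and above them in CDH1+ cells, and neither change was called. The log2 change was -0.0831 in CDH1- cells and 0.0480 in CDH1+ cells, and the difference of 0.13 ± 0.06 was not called by edgeR (adjusted p = 0.704).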

How the results depend on the processing

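Of 2535 values of single genes under the alternatives, 2406 kept their direction and side of the threshold or lacked a call on both sides (101 of them turned sign with neither value called), 90 lost a call, 28 gained one, 9 moved and 2 reversed. The reversed ones are Notch1 in ESCs against MEFs, 0.14 by edgeR and -0.25 and -0.28 by limma on log2(TPM + 1) and log2(TPM + 0.1). The cause was not tested.

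Counts of called genes moved as follows. In the day 2 comparison that helped select the genes, limma on both TPM scales and each fit without 1 library gave 1, from which nothing is read. With limma on both TPM scales, 1 was called with the early window, 2 in CDH1- cells and 3 between the sorted control fractions, where DESeq2 also gave 3. With limma on log2(TPM + 0.1), 1 was called with inhibitor and empty virus. Fitting only the groups compared gave 5 in CDH1+ cells. Leaving out 1 library gave 1 to 3 with the early window, 3 to 6 between the sorted control fractions, 0 to 3 with the empty virus (0 without inhibitor replicate 1) and 0 to 1 with the Cdh1 virus (0 without control replicate 2). Such a fit assumes that the lone sample varies like the other groups.

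Same-numbered libraries did not deviate together (correlations between -0.10 and 0.11), and the main fits did not pair them. Low correlations cannot exclude that same-numbered libraries share a culture, which the labels do not state. A replicate block left every count of called members as it was, 7 for the full window among them.

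Over all genes, calls at day 2 with inhibitor were 2583 against 1510 to 1583 without 1 library. With the early window they were 815 against 398 to 1544 by other alternatives and 380 to 450 without 1 library. The mid window had 3968 against 2647 without 1 library, and full against mid 2910 against 1749. CDH1- cells had 2607 against 1403, CDH1+ cells 2631 against 1460 and 1674 without 1 library. CDH1+ against CDH1- cells had 3717 without and 3749 with inhibitor, against 2243 and 2154, and the difference in inhibitor effect between fractions 26 against 8. The inhibitor with the empty virus had 1013 against 270 without 1 library, and with the Cdh1 virus 759 against 138, or 124 without 1 library. The Cdh1 virus itself had 171 against 81 in MEFs (87 without 1 library) and 135 against 78 and 208 at day 2 (63 without 1 library). The difference in inhibitor effect between viruses had 0 against up to 17, or 2 without 1 library. Genes at a few reads per library, Heyl and Notch4 in the lentivirus cells, are limited by depth.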
